A study of Mus musculus with 8 samples.

Results

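The genes of the mitochondrial ribosome were examined in natural killer (NK) cells, taken from 2 organs of mice that had or lacked a proximal enhancer of Ccl5. They were taken by name: every symbol of the count tables that begins with Mrpl or Mrps followed by a digit, leaving out the 5 names of pseudogenes ending in -ps, with at least 10 reads summed over the libraries. The rule gave 77 genes of the 48321 symbols in the tables, 48 named Mrpl and 29 named Mrps, on 17 chromosomes. The 4 groups were lung WT, lung KO, spleen WT and spleen KO, with 2 libraries each and 8 in all. Cells of all groups were sorted fresh as CD45+ TCRb- NK1.1+ from C57/Bl6 animals. WT mice carried both copies of the enhancer and KO mice (Ccl5 ΔPE/ΔPE) lacked it in every cell, since the deletion was made in the germline with CRISPR/Cas9. The labels give neither age nor sex, and the study's methods describe animals of both sexes, weeks to months old. Nothing states that the 2 libraries of a group came from different mice, so p-values measure the spread between these libraries, which may be technical.

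Mitochondria have ribosomes of their own, which translate the few proteins encoded in mitochondrial DNA, all of them parts of the respiratory chain and the ATP synthase. Their RNAs are transcribed from mitochondrial DNA, while all their proteins are encoded in the nucleus, made in the cytosol and imported. The large subunit joins amino acids and holds the exit tunnel, and the small subunit reads the mRNA. Many of the proteins descend from bacterial ribosomal proteins and the rest are found only in mitochondrial ribosomes. NK cells raise mitochondrial respiration when activated.

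The promoters of these genes are known for sites of the ETS factor GABP, of NRF1 and of YY1, and short stretches with such letters are shown because they are sequence features that the rule did not use and that part of the members hold. The window searched was 250 bases before to 50 bases after the start site in RefSeq (build GRCm38.p6), on both strands, and 68 of the 77 genes had an entry. The letters were CCGGAAG for ETS/GABP, GCATGCGC for NRF1 and AAGATGGCG for YY1. Each stretch below has 30 bases that lie wholly upstream of the start, with the motif or its reverse complement in capitals. Members were taken in the order of their p-value for the difference of the KO effect between organs, leaving out those with several promoter entries and those whose motif lay too close to the start, past it or at the far end of the window, so that members with smaller p-values are missing, for YY1 most of those holding it. The stretches of Mrpl17 and Mrpl10 lie outside annotated exons (GENCODE M21), and the others overlap 1.

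Mrps18c (ETS/GABP, chr5:100798592-100798621, plus strand): gggtcacgtgaCTTCCGGcccgggaagcgc

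Mrps18a (ETS/GABP, chr17:46110967-46110996, plus strand): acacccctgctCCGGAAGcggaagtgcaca

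Mrpl17 (ETS/GABP, chr7:105811306-105811335, minus strand): gcatgctccgcCCGGAAGgcgcctcctcca

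Mrpl32 (NRF1, chr13:14613104-14613133, minus strand): ttgacccttgcGCATGCGCaagaggggcct

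Mrpl10 (NRF1, chr11:97041437-97041466, plus strand): cccagctccacGCATGCGCatagcggccct

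Mrpl9 (NRF1, chr3:94443299-94443328, plus strand): ggcgcagctgcGCATGCGCggggtccttct

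Mrpl36 (YY1, chr13:73330968-73330997, plus strand): cgtgaccttaCGCCATCTTtcttcctggcg

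Mrps11 (YY1, chr7:78783013-78783042, plus strand): ctacgggcgcCGCCATCTTtctgtcttccc

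ETS/GABP letters were in 25 of the 68 member promoters, 36.8%, in 22.1% of the promoters of the 8670 tested genes with an entry and in 8.86% of all 32851 promoters in the table. YY1 letters were in 8 of the 68 (11.8%), in 3.96% of the promoters of tested genes and in 1.40% of all. NRF1 letters were also in 8 (11.8%), in 6.40% of tested genes and in 2.71% of all. The SP letters GGGCGG were in 34 member promoters (50.0%), against 68.0% of tested genes and 35.7% of all. The CCAAT letters were in 27 (39.7%), against 43.0% and 37.4%, and the CACGTG letters of the MYC E-box in 5 (7.35%), against 11.8% and 7.15%. A match is a description of these letters in the window, not a bound site.

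Library depth ran from 3132963 to 26482366 reads on genes. Ccl5, whose proximal enhancer was deleted, was at 19518 and 18349.6 CPM (reads brought to a common library total, after trimmed mean of M-values scaling) in WT lung against 2992 and 3195 in KO lung. It was at 16679 and 15664 in WT spleen against 2676 and 2432 in KO spleen, so the labels matched it in all 8 libraries. The 8 NK markers were all present and summed to 39378 to 40447 CPM in lung WT, 32794 to 32819 in lung KO, 28196 to 28432 in spleen WT and 35403 to 37146 in spleen KO. Their sum was thus lower in KO than in WT lung and higher in KO than in WT spleen. The single markers are not given here, so the sum does not show that each of them moved this way, nor does it measure the content of NK cells. The paper reports higher mRNA of T-bet, which it counts among regulators of NK cell proliferation and activation, in lung NK cells of KO mice. Markers of lung epithelium (3 genes) summed to 239.1 to 239.4 CPM in lung WT and 311.5 to 346.4 in lung KO, and to at most 0.65 in spleen. The 2 erythroid markers summed to 18.8 to 23.6 in lung WT, 36.8 to 43.4 in lung KO and at most 0.82 in spleen. The 6 T cell markers summed to 415.0 to 434.0 in lung WT, 324.8 to 343.9 in lung KO, 547.6 to 557.8 in spleen WT and 600.2 to 633.6 in spleen KO. The 4 B cell markers summed to between 5.18 and 8.16 in lung and between 38.2 and 44.3 in spleen. The 6 myeloid markers summed to 157.9 to 180.8 over all libraries, with S100a8 and S100a9 at 0 in each, and the 2 endothelial markers to 64.9 to 86.0. The part of these cells in the results on the mitochondrial ribosome was not tested. In bulk libraries, fewer cells of a type and less RNA per cell cannot be told apart.

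All but 1 of the 77 genes passed the filter on low counts. Mrpl53, a large-subunit protein (chr6:83109040-83109939), had at most 0.373 CPM in any library and was not tested. In GENCODE M21 its exons lie to 88.0% under exons of Gm42688 on the same strand. Reads there could be assigned to neither gene if the counting used both. The annotation used for counting is not given, and the part of this overlap in the low counts was not tested. The tested members had between 14 and 8008 reads in a library, with library medians from 216 to 1730.5 (spleen KO replicate 2, the deepest). Their median level of log2 CPM was 5.91, against 4.36 over all 12595 genes tested.

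Per length, levels spread widely among the members. Averaged over the 8 libraries and divided by the length of the exons, the median was 19.6 CPM per kb. The highest were Mrpl18 at 146.5 and Mrpl36 at 145.1, and the lowest was Mrps5 at 1.80. Exon lengths, over all annotated transcripts, ran from 607 to 8631 bases and may include exons these cells do not use. The most reads per gene fell on Mrps14, Mrpl18 and Mrpl42, with means of 266, 205 and 198 CPM. The fewest among those tested fell on Mrps28, Mrps6 and Mrps5, with 7.11, 9.14 and 11.8 CPM.

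In the lung, loss of the enhancer went with lower mRNA of most of the mitochondrial ribosome. Summed over the 50 large-subunit genes, CPM were 3695 and 3540.1 in WT lung, 2988 and 3019 in KO lung, 3313 and 3170.4 in WT spleen and 4117 and 3905 in KO spleen. Over the 26 small-subunit genes the sums were 1624 and 1535 in WT lung, 1200.3 and 1253 in KO lung, 1454 and 1402 in WT spleen and 1741 and 1637 in KO spleen. In both sums the lung KO libraries lay below both lung WT libraries and the spleen KO libraries above both spleen WT libraries.

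**Figure D1:**
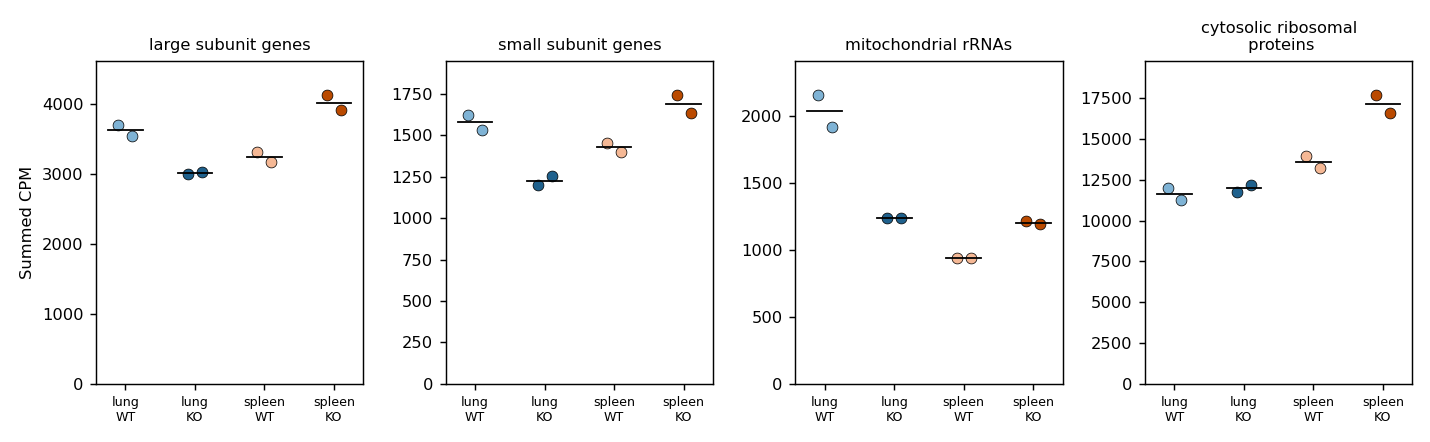
Summed CPM of the large-subunit genes, the small-subunit genes, the mitochondrial rRNAs and the cytosolic ribosomal proteins in each library (points) with the group mean (line), from 0. For the large subunit the lung KO libraries sit at 2988 and 3019 and the spleen KO libraries at 4117 and 3905.

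Of the 76 genes tested in lung, 45 fell in KO and 9 rose at an adjusted p below 0.05, where 26.4% of all genes tested fell and 29.2% rose. The median log2 fold change was -0.28 over the members and 0.02 over all genes. In 53 members both KO libraries lay below both WT libraries, and in 13 above, where the shares over all genes were 36.7% and 39.3%. Calls came from the quasi-likelihood test of edgeR over the 8 libraries with Benjamini-Hochberg adjustment over the 12595 genes. The spread between libraries of a group was small, with a common biological coefficient of variation of 2.50%, and with that coefficient preset to 0.2 the counts in lung came to 3 lower and 1 higher, where 4.19% of all genes tested were lower and 8.17% higher, so that the count lower was then near the share over all genes.

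Mrpl42, a large-subunit protein found only in mitochondrial ribosomes (chr10:95480805-95501940), was at 258 and 234 CPM in lung WT and 137 and 132 in lung KO. The groups did not overlap and the log2 fold change was -0.89 ± 0.06 (SE), edgeR adjusted p = 1.08e-15. Mrps14, of the small-subunit head (chr1:160195215-160202170), was at 325 and 302 in WT and 198 and 205 in KO (log2 fold change -0.65 ± 0.05 (SE), edgeR adjusted p = 9.80e-13). Both KO libraries again lay below both WT libraries.

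Mrpl11, which sits at the base of the stalk where translation factors bind (chr19:4962147-4966999), had the largest fall in lung of the 76, from 66.9 and 65.0 CPM to 32.1 and 31.2. Its log2 fold change was -1.07 ± 0.09 (SE), edgeR adjusted p = 1.59e-12, which is 0.477 times the WT level. Mrpl45, which ties the ribosome to the inner membrane near the tunnel exit (chr11:97315716-97329920), was at 99.6 and 95.1 in WT and 62.4 and 60.7 in KO, a log2 fold change of -0.67 ± 0.07 (SE), edgeR adjusted p = 3.40e-10. Mrpl40, of the central protuberance (chr16:18872018-18876862), went from 139 and 126 to 88.4 and 86.5 (-0.62 ± 0.07 (SE), edgeR adjusted p = 3.94e-10). In none of these 5 genes did the WT and KO libraries of the lung overlap.

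The genes that rose in lung KO were led by Mrpl4, whose protein lines the exit tunnel (chr9:21002738-21008839). It was at 42.9 and 39.6 CPM in WT and 78.4 and 79.5 in KO, and its log2 fold change was 0.92 ± 0.08 (SE), edgeR adjusted p = 3.47e-12. Mrpl37 (chr4:107055874-107066868) was at 64.4 and 62.7 in WT and 80.03 and 83.7 in KO (0.36 ± 0.08 (SE), edgeR adjusted p = 9.40e-05). Mrpl10, which carries the stalk (chr11:97041560-97049213), was at 42.5 and 46.1 in WT and 56.1 and 57.7 in KO (0.38 ± 0.09 (SE), edgeR adjusted p = 2.75e-04).

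Mrps2 (chr2:28468066-28471178), a small-subunit protein at low level, was at 11.4 and 9.58 CPM in WT and 17.6 and 16.5 in KO (0.65 ± 0.16 (SE), edgeR adjusted p = 6.57e-04). Mrpl38 (chr11:116131817-116138868), also of the central protuberance, was at 24.4 and 28.8 in WT and 35.4 and 34.6 in KO (0.43 ± 0.11 (SE), edgeR adjusted p = 0.00101). The call on Mrpl38 was lost with an offset for GC content, which took its log2 fold change to 0.11, with DESeq2, and without lung WT replicate 1. The other 4 that rose were Mrps6, Mrps30, Mrpl12 and Mrps26, by 0.20 to 0.58.

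In the spleen the balance ran the other way. Of the 76 members 43 rose and 6 fell in KO, where 28.2% of all genes tested rose and 28.9% fell. The median log2 fold change was 0.26, against 0.00 over all genes. In 54 members both KO libraries lay above both WT libraries, and in 9 below, where the shares over all genes were 36.4% and 37.4%. Without spleen WT replicate 2 the members called higher came to 28, and without spleen KO replicate 2 those called lower came to 2. With the coefficient of variation preset to 0.2 in edgeR none was called in either direction, where 2.86% of all genes were higher and 6.22% lower, and 6 were higher and 1 lower at an unadjusted p under 0.05 (DESeq2, which estimates its own spread, called 32 higher and 2 lower).

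Mrps14 and Mrpl42, which fell in lung, rose in spleen. Mrps14 was at 221 and 220.0 CPM in spleen WT against 350.3 and 307 in spleen KO (0.54 ± 0.05 (SE), edgeR adjusted p = 3.42e-11). Mrpl42 was at 173 and 163 in WT and 253 and 232 in KO (0.51 ± 0.05 (SE), edgeR adjusted p = 2.49e-10). Neither gene's WT and KO libraries overlapped.

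Mrpl32 (chr13:14608184-14613165), a large-subunit protein that is cut by a protease after import, was at 61.2 and 62.3 CPM in spleen WT against 98.9 and 94.6 in spleen KO (0.63 ± 0.06 (SE), edgeR adjusted p = 2.15e-10). Mrpl46 of the central protuberance (chr7:78775236-78783531) was at 92.9 and 92.8 in WT and 144 and 134 in KO (0.55 ± 0.06 (SE), edgeR adjusted p = 3.09e-10). Mrpl13 (chr15:55534094-55557748), a large-subunit protein of bacterial descent, was at 48.5 and 45.2 in WT and 81.9 and 74.1 in KO (0.71 ± 0.08 (SE), edgeR adjusted p = 9.44e-10). All 3 had fallen in lung KO, with log2 fold changes of -0.42, -0.46 and -0.37.

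Of the 6 members that fell in spleen KO, 4 carry an Mrps name. Mrps30 (chr13:118378381-118387252), a large-subunit protein despite its name, was at 91.4 and 87.5 CPM in WT and 69.5 and 61.1 in KO (-0.51 ± 0.07 (SE), edgeR adjusted p = 1.18e-07). Its exons overlap those of the antisense gene B430218F22Rik over 623 bases. Mrps5 (chr2:127587222-127606829), which lies near the mRNA entrance of the small subunit, was at 16.2 and 13.8 in WT and 7.83 and 8.62 in KO (-0.78 ± 0.15 (SE), edgeR adjusted p = 2.70e-05).

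Mrps26 (chr2:130563742-130568695), found only in mitochondrial ribosomes, was at 72.9 and 70.9 CPM in spleen WT against 60.4 and 58.0 in KO (-0.29 ± 0.07 (SE), edgeR adjusted p = 3.25e-04), a call lost with DESeq2 and without spleen KO replicate 2. Mrpl4 was at 57.2 and 58.8 in WT and 50.3 and 49.5 in KO (-0.23 ± 0.07 (SE), edgeR adjusted p = 0.00683), and this call was lost with DESeq2, with the GC offset (log2 fold change -0.03) and without spleen WT replicate 2 or spleen KO replicate 2. Mrps27 (chr13:99344786-99415562), an RNA-binding protein of the small subunit, was at 33.7 and 32.2 in WT and 26.1 and 28.6 in KO (-0.21 ± 0.09 (SE), edgeR adjusted p = 0.0483). Its call was lost under most of the alternatives, among them DESeq2 (adjusted p = 0.297). The sixth was Mrpl54, with -0.25.

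**Figure D2:**
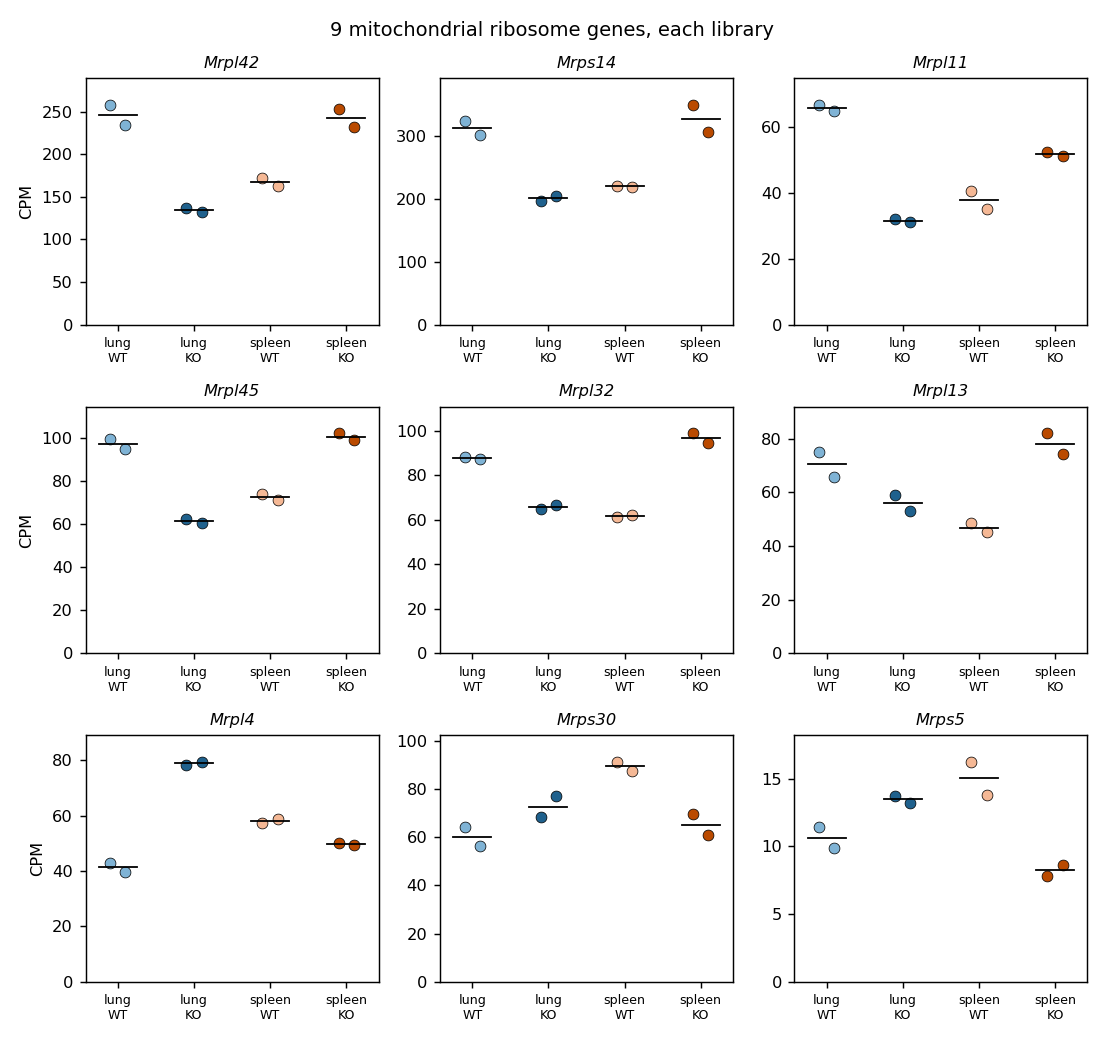
CPM of 9 mitochondrial ribosome genes in each library (points) with the group mean (line), each panel from 0. Mrpl42, Mrps14, Mrpl11, Mrpl45, Mrpl32 and Mrpl13 are lower in lung KO and higher in spleen KO than in the WT of the same organ, and Mrpl4 and Mrps30 run the opposite way.

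The KO effect itself differed between the organs in most members. The difference of the log2 fold changes, lung minus spleen, was called lower in 55 of 76 and higher in 8, where 29% of all genes tested were called lower and 32.5% higher. Its median was -0.47 over the members and 0.03 over all genes. In 33 members, 43.4% of those tested, the fall in lung and the rise in spleen were both called, where 12.8% of all genes tested did so. In 3 members, Mrpl4, Mrps26 and Mrps30, a rise in lung and a fall in spleen were both called. No member was called in the same direction in both organs by edgeR or by DESeq2, and at an unadjusted p under 0.05 in edgeR 1, Mrps27, was lower in both. Of the rest, 18 were called in lung only, 13 in spleen only and 9 in neither, among them Mrps7, Mrps11 and Mrpl2. Of all genes called in both organs, 77.9% (3402 of 4367) also went opposite ways. Shares over all genes are not given here for a rise in lung with a fall in spleen. Nor are they given for calls in lung only, in spleen only or in neither, so these counts are not read against a background.

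**Figure D3:**
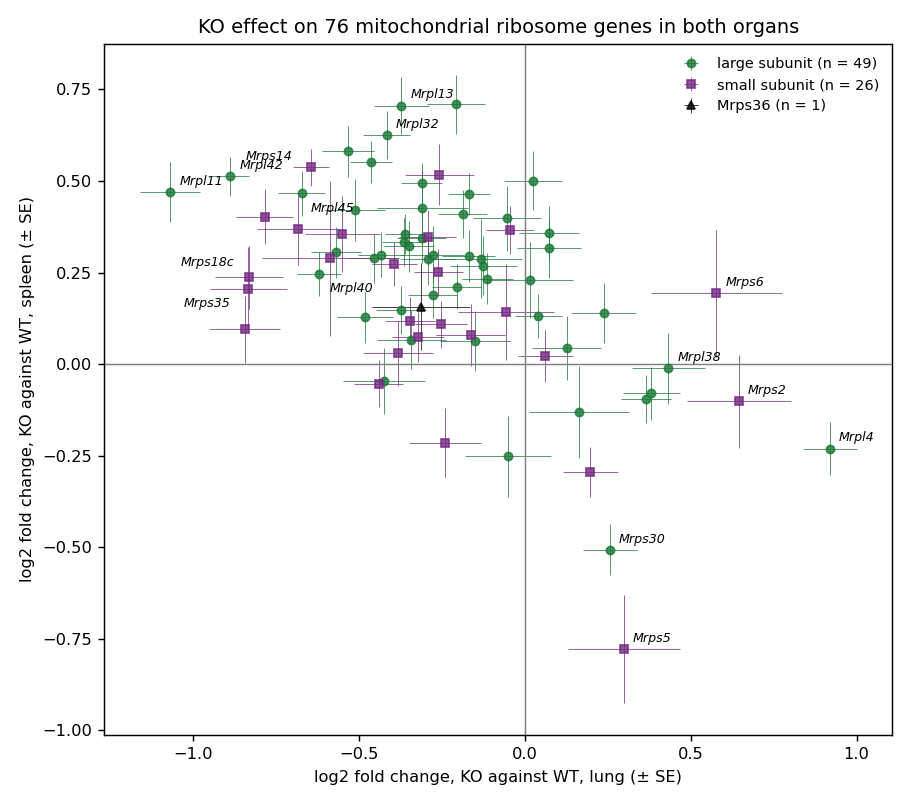
Log2 fold change of KO against WT in lung (horizontal) and in spleen (vertical) for the 76 tested genes, with SE bars, by subunit. Of the points, 54 lie to the left of 0 and above 0, and 9 to the right of 0 and below 0.

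The differences with the smallest p-values, each given with its adjusted p from edgeR, were those of Mrpl42 (-1.40 ± 0.08 (SE), 6.45e-18), Mrps14 (-1.18 ± 0.07 (SE), 1.84e-16) and Mrpl11 (-1.54 ± 0.12 (SE), 1.40e-13). In Mrpl11 lung WT was the highest group and lung KO the lowest, with 40.7 and 35.3 CPM in spleen WT against 52.6 and 51.2 in spleen KO lying between them. Mrpl45 differed by -1.14 ± 0.09 (SE) and Mrpl46 by -1.01 ± 0.09 (SE). In the other direction Mrpl4 differed by 1.15 ± 0.11 (SE), edgeR adjusted p = 1.36e-11, and Mrps5 by 1.08 ± 0.22 (SE), edgeR adjusted p = 7.59e-05. Mrps30 (0.76 ± 0.11 (SE)), Mrps26 (0.49 ± 0.11 (SE)) and Mrpl37 (0.46 ± 0.10 (SE)) followed.

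**Figure D4:**
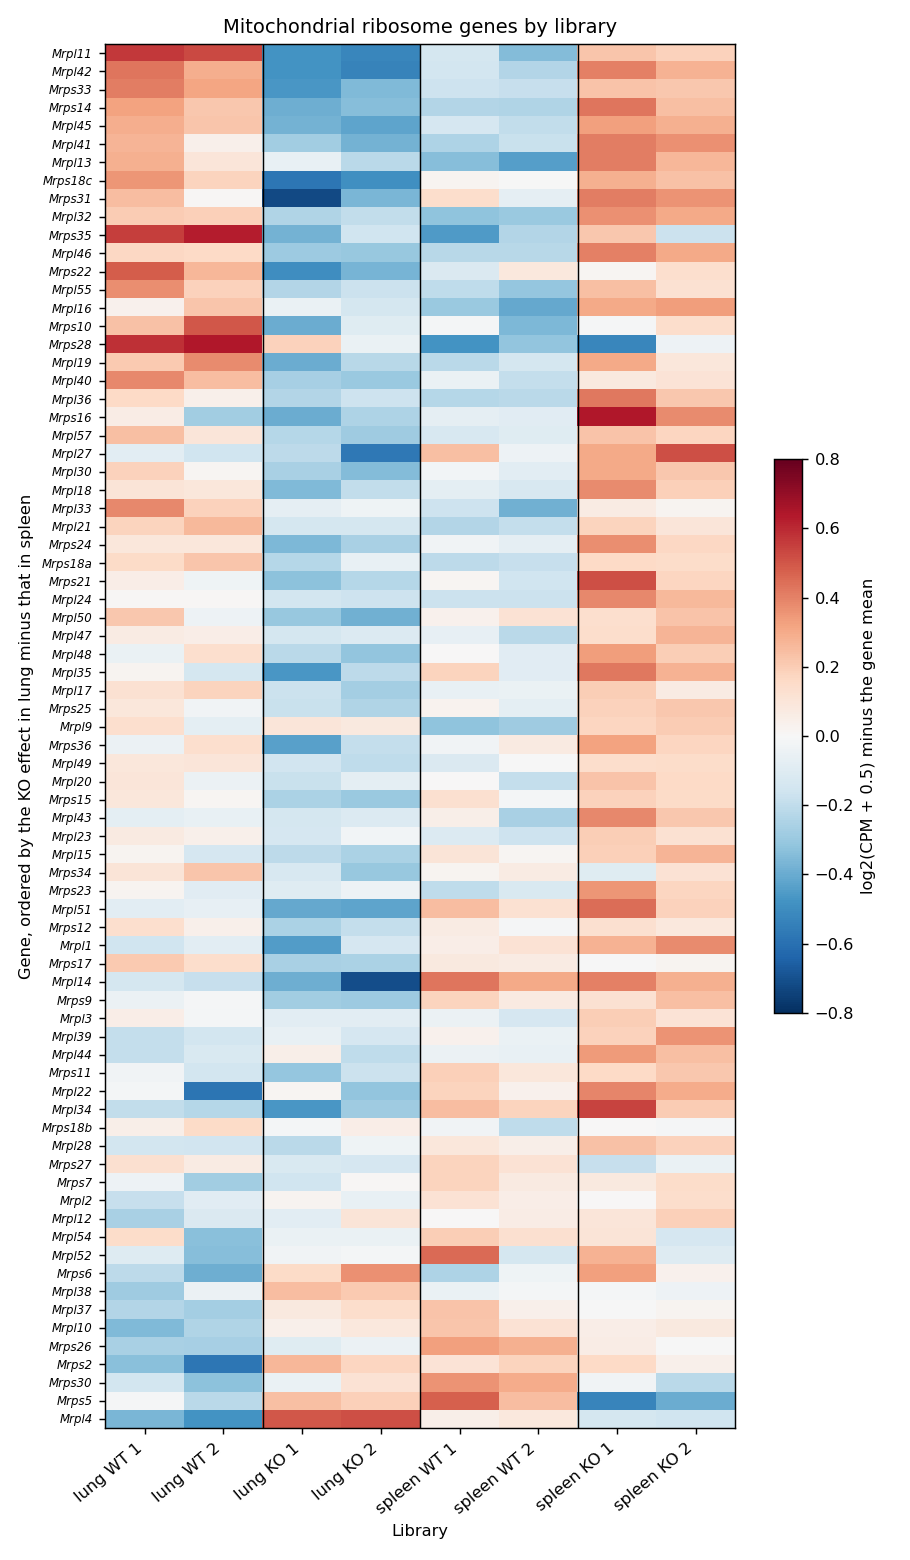
Log2(CPM + 0.5) of the 76 tested genes in each of the 8 libraries, minus the gene's mean over the libraries, ordered from the most negative to the most positive difference of the KO effect (lung minus spleen). Most genes are below their mean in the lung KO libraries and above it in the spleen KO libraries, and several genes at the foot, such as Mrpl4 and Mrps2, are above it in lung KO.

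Over the 4 groups, lung KO had the lowest group mean in 41 of the 76 members and the highest in 4. Spleen KO had the highest in 43 and the lowest in 1. Lung WT had the highest in 18 and spleen WT in 11. These counts were not made over all genes, so whether they are particular to the members was not tested.

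Compared between organs within the WT, 29 members were higher in lung and 14 lower, where 27.7% of all genes tested were higher and 29.3% lower. The median log2 fold change was 0.11, against -0.01 over all genes. With library totals in place of the scaling factors the counts were 23 and 23, and the median of all genes was then -0.12. Mrpl11 (0.83 ± 0.09 (SE), edgeR adjusted p = 2.44e-10), Mrpl42 (0.58 ± 0.06 (SE)) and Mrps14 (0.52 ± 0.05 (SE)) had the smallest p-values among those higher in WT lung. Mrps26 (-0.57 ± 0.08 (SE)), Mrps30 (-0.53 ± 0.08 (SE)) and Mrpl4 (-0.48 ± 0.09 (SE)) had them among those lower.

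Within the KO most members were lower in lung. In KO lung 56 were lower than in KO spleen and 4 higher, where 31.7% of all genes tested were lower and 33.9% higher. The median log2 fold change was -0.41, against 0.02 over all genes. Mrpl42 (-0.82 ± 0.05 (SE), edgeR adjusted p = 7.59e-16), Mrps14 (-0.66 ± 0.05 (SE)) and Mrpl45 (-0.70 ± 0.06 (SE)) had the smallest p-values among those lower in KO lung. The 4 that were higher were Mrpl4 (0.67 ± 0.07 (SE), edgeR adjusted p = 7.29e-11), Mrps5 (0.65 ± 0.15 (SE)), Mrps30 (0.23 ± 0.07 (SE)) and Mrpl38 (0.27 ± 0.09 (SE)), and the call on Mrps30 was lost without lung KO replicate 2 (0.13), without spleen KO replicate 2 (0.09) and with DESeq2 (0.19, adjusted p = 0.208). These comparisons share libraries with those of KO against WT.

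**Figure D5:**
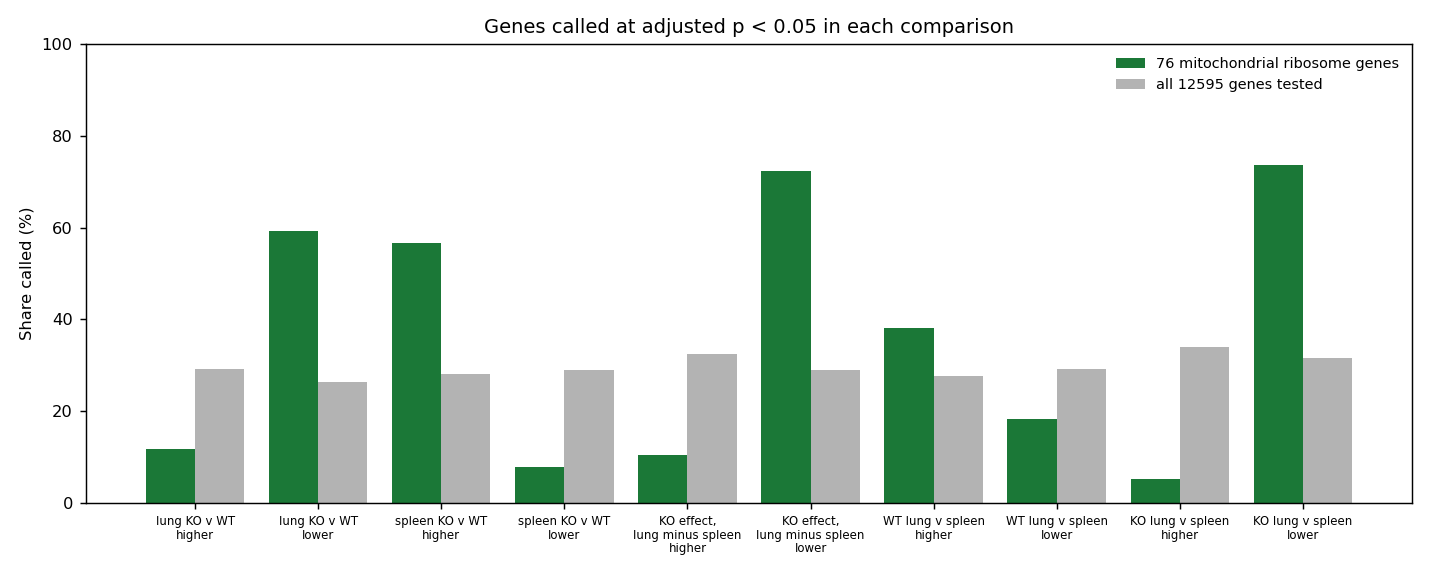
Share of genes called at an adjusted p below 0.05 in each comparison and direction, for the 76 mitochondrial ribosome genes and for all 12595 genes tested, on an axis from 0 to 100%. The members' shares are above the background for lower in lung KO (59.2% against 26.4%) and higher in spleen KO (56.6% against 28.2%).

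Both subunits held members that fell in lung and rose in spleen. In lung, 6 of 49 rose and 28 fell (median log2 fold change -0.28) in the large subunit. In the small subunit 3 of 26 rose and 17 fell (median log2 fold change -0.31). Over all genes tested 29.2% rose and 26.4% fell in lung, and 28.2% rose and 28.9% fell in spleen. In spleen 33 of 49 rose and 3 fell (median log2 fold change 0.30) in the large subunit and 10 of 26 rose and 3 fell (median log2 fold change 0.17) in the small. Members with a bacterial counterpart had median log2 fold changes of -0.27 in lung and 0.28 in spleen, and those found only in mitochondrial ribosomes -0.29 and 0.25. The differences between these classes were not tested.

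Several members have duties or positions of their own. Mrps12, at the decoding site (chr7:28739641-28741820), was at 70.2 and 65.8 CPM in WT lung, 53.6 and 55.9 in KO lung, 66.9 and 63.6 in WT spleen and 69.9 and 67.8 in KO spleen, with log2 fold changes of -0.32 ± 0.08 (SE) in lung and 0.07 ± 0.07 (SE) in spleen, of which the lung value was called (edgeR adjusted p = 6.70e-04). Mrpl12, the stalk protein that meets translation factors (chr11:120484613-120489065), was at 35.1 and 38.9 CPM in WT lung, 39.7 and 45.2 in KO lung, 42.2 and 43.8 in WT spleen and 45.0 and 48.2 in KO spleen, with 0.24 ± 0.10 (SE) in lung (edgeR adjusted p = 0.0377) and 0.14 ± 0.08 (SE) in spleen. Mrps18a, a large-subunit protein despite its name (chr17:46110986-46128910), fell in lung (-0.31 ± 0.07 (SE)) and rose in spleen (0.35 ± 0.07 (SE)).

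Mrps36 (chr13:100735955-100744659) is a part of the 2-oxoglutarate dehydrogenase complex. It is a member by its name and is not counted in either subunit here. Mrps36 was at 17.0 and 19.4 CPM in WT lung and 12.9 and 15.4 in KO lung. In spleen it was at 17.2 and 18.6 in WT and 22.2 and 19.9 in KO. Neither organ's KO effect passed the test, with -0.31 ± 0.15 (SE) in lung and 0.16 ± 0.12 (SE) in spleen, though their difference did (-0.47 ± 0.19 (SE), edgeR adjusted p = 0.0298). Its processed copies are annotated too, and reads that could come from either were possible. Mrps28 (chr3:8802146-8923918), at a low level, was at 10.4 and 10.9 CPM in WT lung, 7.78 and 6.53 in KO lung, 4.75 and 5.37 in WT spleen and 4.57 and 6.59 in KO spleen, higher in both lung WT libraries than in any other library. Mrpl18 (chr17:12911349-12916345), the central protuberance protein with the second-highest mean CPM, fell in lung (-0.36 ± 0.06 (SE)) and rose in spleen (0.35 ± 0.05 (SE)). Mrps6 (chr16:92058270-92112227) rose in lung (0.58 ± 0.20 (SE), edgeR adjusted p = 0.0126). Its exons overlap those of Slc5a3 and Gm49711 on the same strand, and the larger overlap covers 19.9% of its exon length. Ict1, the older symbol of Mrpl58 and the peptidyl-tRNA hydrolase built into the large subunit, does not match the naming rule and is no member. It was at 215 and 200.2 CPM in WT lung, 138 and 153 in KO lung, 168 and 172 in WT spleen and 222 and 210.4 in KO spleen (-0.52 ± 0.06 (SE) in lung and 0.33 ± 0.05 (SE) in spleen).

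Mitochondrial ribosome proteins without an Mrp name were counted in the same way. Of the 5 (Dap3, Ptcd3, Chchd1, Aurkaip1 and Gadd45gip1), 4 fell in lung KO and 0 rose, and 3 rose in spleen KO and 0 fell (edgeR), and DESeq2 and an unadjusted p under 0.05 gave the same counts. In edgeR 26.4% of all genes tested fell and 29.2% rose in lung, and 28.2% rose and 28.9% fell in spleen. Ptcd3, a small-subunit RNA-binding protein, was at 129 and 134 CPM in lung WT and 108 and 95.6 in lung KO (-0.37 ± 0.06 (SE), edgeR adjusted p = 5.28e-06). Chchd1, a small-subunit protein, went from 80.2 and 80.9 CPM in WT spleen to 119 and 112 in KO (0.49 ± 0.06 (SE), edgeR adjusted p = 3.77e-08).

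The mitochondrial rRNAs were lower in lung KO as well. mt-Rnr2, the large-subunit rRNA, was at 1996 and 1774 CPM in WT lung and 1136 and 1134 in KO lung (-0.74 ± 0.04 (SE), edgeR adjusted p = 7.80e-18), and at 872 and 865 in WT spleen and 1147 and 1122 in KO spleen (0.38 ± 0.04 (SE), edgeR adjusted p = 5.44e-10). mt-Rnr1, the small-subunit rRNA, was at 156 and 139.6 in lung WT and 100.5 and 107 in lung KO (-0.52 ± 0.06 (SE), edgeR adjusted p = 1.11e-08). In spleen it was at 64.2 and 72.2 in WT and 67.2 and 69.3 in KO, with -0.01 ± 0.07 (SE). rRNA levels depend on how the libraries selected RNA.

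Lists of factors that build and serve the ribosome are read against the same shares of all genes, 29.2% higher and 26.4% lower in lung and 28.2% and 28.9% in spleen, and differences between lists were not tested. Of the assembly factors, 10 of 24 rose and 3 fell (median log2 fold change 0.11) in lung and 6 of 24 rose and 8 fell (median log2 fold change -0.05) in spleen. Rpusd4, a pseudouridine synthase of mitochondrial rRNA, rose in lung KO from 9.57 and 9.07 to 30.1 and 27.9 CPM (1.61 ± 0.14 (SE), edgeR adjusted p = 6.31e-12), and Gtpbp10, an assembly GTPase, fell (-0.97 ± 0.25 (SE)). In spleen KO Mtg2, another assembly GTPase, fell from 53.5 and 51.9 to 33.6 and 33.6 (-0.64 ± 0.08 (SE)), and Malsu1, which keeps the subunits apart during assembly, rose (0.53 ± 0.08 (SE)).

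Of the translation factors, 3 of 15 rose and 3 fell (median log2 fold change 0.03) in lung and 4 of 15 rose and 4 fell (median log2 fold change 0.06) in spleen. Slirp, an RNA-binding partner of Lrpprc that steadies mitochondrial mRNA, fell in lung (-0.36 ± 0.05 (SE)) and rose in spleen (0.37 ± 0.05 (SE)). Lrpprc itself fell in spleen (-0.59 ± 0.10 (SE)). Mtfmt, which formylates the initiator tRNA, rose in lung (0.97 ± 0.12 (SE)) and in spleen (0.45 ± 0.09 (SE)).

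Of the mitochondrial aminoacyl-tRNA synthetases, 5 of 16 rose and 2 fell (median log2 fold change 0.17) in lung and 3 of 16 rose and 6 fell (median log2 fold change -0.26) in spleen. Rars2 fell in lung (-0.46 ± 0.07 (SE)) and rose in spleen (0.35 ± 0.07 (SE)), and Yars2 fell in spleen (-0.84 ± 0.10 (SE)). Vars2 was at 0.124 and 0.259 CPM in lung WT, at or below the level of 3 reads in each library, and at 2.66 and 3.67 in lung KO (edgeR adjusted p = 1.10e-06).

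Of the factors of mitochondrial transcription and replication, 2 of 10 rose and 2 fell (median log2 fold change -0.07) in lung and 3 of 10 rose and 1 fell (median log2 fold change 0.23) in spleen. Tfam, which packages mitochondrial DNA and starts its transcription, rose in spleen from 45.5 and 49.9 to 82.6 and 78.3 CPM (0.71 ± 0.07 (SE), edgeR adjusted p = 1.18e-10) and was at -0.10 ± 0.08 (SE) in lung. Polg, the catalytic subunit of the mitochondrial DNA polymerase, fell in spleen (-0.94 ± 0.12 (SE)). In lung Polg2, its accessory subunit, rose (0.72 ± 0.17 (SE)) and Mterf1a fell (-1.93 ± 0.34 (SE)).

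Of the regulators of mitochondrial biogenesis, 7 of 10 rose and 0 fell (median log2 fold change 0.50) in lung, where 29.2% of all genes rose and 26.4% fell. Among the 7, Ppargc1b had 1 and 0 reads in lung WT, under the floor of 3, and 23 and 16 in lung KO. Ppargc1a had 19 and 4 reads in lung WT and 23 and 31 in lung KO. In spleen 1 of 10 rose and 5 fell (median log2 fold change -0.16), where 28.2% of all genes rose and 28.9% fell. DESeq2 called 4 higher and 0 lower in lung and 1 higher and 1 lower in spleen, and at an unadjusted p under 0.05 edgeR also had 0 lower in lung. Gabpa, the DNA-binding subunit of GABP, was at 55.4 and 53.4 CPM in lung WT and 89.4 and 92.0 in lung KO (0.73 ± 0.07 (SE), edgeR adjusted p = 9.80e-11). Nrf1 rose in lung (0.42 ± 0.09 (SE)) and fell in spleen (-0.44 ± 0.08 (SE)). Gabpb2, which partners Gabpa, rose in spleen (0.41 ± 0.09 (SE)) and in lung (0.39 ± 0.10 (SE)).

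The proteins of the cytosolic ribosome were taken for comparison. Of them, 20 of 81 rose and 11 fell (median log2 fold change 0.01) in lung and 58 of 81 rose and 4 fell (median log2 fold change 0.30) in spleen, and their summed CPM were 12021 and 11283 in WT lung, 11744 and 12199.8 in KO lung, 13940.2 and 13244 in WT spleen and 17664 and 16611 in KO spleen. The shares over all genes tested were 29.2% higher and 26.4% lower in lung and 28.2% higher and 28.9% lower in spleen. That the lists differ was not tested.

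Properties of the genes were set beside the KO effect as descriptions across genes, which are not independent replicates. Over the 76 members Spearman's rho between GC content and the log2 fold change was 0.30 in lung and -0.31 in spleen, and over 12500 genes 0.29 and -0.27. With the mean log2 CPM it was -0.26 in lung and 0.37 in spleen, against -0.11 and 0.07 over all genes. With exon length it was -0.06 and 0.01. The members' median GC content was 49.6%, against 48.8% over all genes. With an offset for GC content 43 fell and 8 rose in lung and 48 rose and 4 fell in spleen. The shares of all genes called under this offset are not given here. Under the offset the median log2 fold change in lung was -0.26 over the members and 0.03 over all genes. In spleen it was 0.27 and -0.02.

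Exons of 27 members overlap an antisense gene and those of 8 a gene on the same strand, and the strand setting of the counting is not given in the sources used here. Mrps25 lies to 69.8% under Nr2c2, Mrps34 to 63.4% under Mapk8ip3 and Mrpl19 to 36% under Gcfc2, so their counts may hold reads of those genes. Mrpl46 and Mrps11, which lie head to head, share 173 bases of exon. Of the named members, Mrpl10, Mrpl12, Mrpl13, Mrpl18, Mrps26, Mrps27 and Mrps30 also have antisense exons over part of their length. The 45 members with no such overlap gave 28 lower and 4 higher in lung (median log2 fold change -0.31) and 24 higher and 3 lower in spleen (0.27). Among all genes tested 26.4% were lower and 29.2% higher in lung, and 28.2% higher and 28.9% lower in spleen.

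The promoter letters were found in members that fell in lung and rose in spleen and in the other tested members, which hold several patterns. Of the 30 members with an entry that fell in lung and rose in spleen, 10 held the ETS/GABP letters (33.3%), and of the 37 other tested members 14 did (37.8%). NRF1 letters were in 2 of the 30 and 6 of the 37, and YY1 letters in 5 and 3. Mrpl32 and Mrpl10, both shown above with NRF1 letters, had log2 fold changes of -0.42 and 0.38 in lung.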

How the data were processed

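Read counts per gene were deposited for each library, and the authors made them by aligning reads of 50 bases with HISAT2 (2.1.0) to mm10 (GRCm38) and counting with HTSeq (0.11.1 in the submitters' processing notes). RNA came from sorted cells and libraries were made with the NEBNext Ultra kit. The gene annotation and the strand setting are not given in the sources used here. Library depth was 3132963 to 26482366 reads on genes, 44.3% to 46.6% of the uniquely aligned reads, and reads assigned to no gene stayed out of the totals. A count of 3 was taken as the floor.

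Samples were grouped by organ and genotype from their titles. Genes kept by edgeR's filterByExpr (12595) were fitted over all 8 libraries with 1 mean per group, trimmed mean of M-values scaling and the quasi-likelihood test in edgeR 4.0.16 (R 4.3.3). p-values were adjusted by Benjamini-Hochberg over all genes in each of 5 contrasts, and a call was an adjusted p below 0.05. Fold changes are log2 with SE, which was derived as the absolute log2 fold change over the square root of the quasi-likelihood F statistic. Positions and exon lengths are from GENCODE M21 (GRCm38), promoters from RefSeq. Before use the scripts were tested on simulated data for KO against WT in lung (12048 genes). With edgeR 58.2% of changes of 0.5 and 70.1% of changes of 1 on the log2 scale were recovered over all genes. Among genes averaging over 100 reads 84.4% and 100% were recovered, and 5.3% of calls were false. DESeq2 recovered 30.6% and 54.6% over all genes. The simulation changed few genes, in lung KO only, at a fixed spread between libraries, so these shares do not give those of the real calls.

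The members and lists were chosen with earlier results of these data known. Named members were, by p-value, the first 5 called in either direction for each KO comparison and in the difference, 3 in each direction between organs, the 3 highest and 3 lowest in mean CPM, 6 genes by role and those not tested. Other lists gave the first called gene in either direction plus both mitochondrial rRNAs. Where replicate numbers matched, the correlations of the deviations from the group means did not show pairing, so no block was used. Alternatives were DESeq2 (1.42.0), other scaling, no filter, subsets of libraries, a replicate block, a preset coefficient of variation, an offset for GC content and leaving out each library. With 2 libraries against 2 an exact permutation test cannot go below 0.333, so none is given.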

Additional observations from a re-analysis of the deposited data

Results flagged for a closer look

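The KO effect differed between lung and spleen by the test of the difference itself, the lung log2 fold change minus the spleen one (edgeR quasi-likelihood test, Benjamini-Hochberg adjustment). Of the 76 members tested, 55 were called lower and 8 higher, against 29% and 32.5% of all genes tested. The named members with such a difference were Mrpl11 (-1.54), Mrpl42 (-1.40), Mrps14 (-1.18), Mrpl45 (-1.14) and Mrpl46 (-1.01) below 0. The 5 above 0 were Mrpl4 (1.15), Mrps5 (1.08), Mrps30 (0.76), Mrps26 (0.49) and Mrpl37 (0.46). Other named members also had a called difference, among them Mrpl13 and Mrpl32 below 0 and Mrps2 above 0.

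Pseudogene names of the same families, left out by the naming rule, also held reads above the floor of 3. Summed over the 8 libraries, Mrpl48-ps had 367 reads, Mrps36-ps1 168, Mrpl23-ps1 149 and Mrps36-ps2 19.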

How the results depend on the processing

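The direction of the median log2 fold change of the members was kept in all 5 comparisons under every alternative run. Its range was -0.30 to -0.19 for KO against WT in lung, 0.19 to 0.30 in spleen, -0.56 to -0.31 for the difference, 0.01 to 0.15 between organs in WT and -0.43 to -0.35 in KO. The medians in lung and spleen moved most with library totals, to -0.19 and 0.19. The counts of calls moved most with the biological coefficient of variation preset to 0.2. Members called were then 1 higher and 3 lower in lung, 0 and 0 in spleen, 1 higher and 6 lower for the difference, 2 higher and 0 lower between organs in WT, and 0 higher and 5 lower in KO, and 0 fell in lung while rising in spleen. At an unadjusted p under 0.05 this fit in edgeR had 6 higher and 1 lower in spleen, 0 lower between organs in WT and 2 higher in KO. All genes then gave 8.17% higher and 4.19% lower in lung, 2.86% and 6.22% in spleen, 11.2% and 4.86% for the difference, 7.01% and 8.96% between organs in WT and 12.1% and 6.33% in KO. DESeq2 called 4 members higher and 34 lower in lung, and 32 higher and 2 lower in spleen. It called 7 lower in WT lung against spleen and 2 higher in KO lung against spleen. Its median log2 fold change in lung was -0.29 over the members and 0.01 over all genes, and in spleen 0.28 and 0. Shares of all genes called are not given here for DESeq2, library totals, the replicate block or the fits that leave out a library. With library totals, 23 were lower in WT lung against spleen.

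Leaving out each library in turn gave 5 to 9 higher and 34 to 47 lower in lung, 28 to 46 higher and 2 to 6 lower in spleen, 7 to 8 higher and 49 to 55 lower for the difference, 22 to 31 higher and 10 to 15 lower between organs in WT, and 2 to 4 higher and 52 to 56 lower in KO. The 5 higher in lung came without lung KO replicate 2, and the 2 higher in KO lung against spleen without lung KO replicate 2 or spleen KO replicate 2. The members that fell in lung and rose in spleen, a count added after seeing the data, were 23 to 32 without each library, against 33 with all. With a replicate block the counts were 8 higher and 45 lower in lung and 45 higher and 4 lower in spleen, and pairing was not apparent, with correlations of equal numbers from -0.08 to 0.17 over 5103 genes.

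Of 42 named values, 37 kept their call under DESeq2, 41 with the block, 39 with the GC offset and 9 with the preset coefficient. Mrpl53 had too few reads to test, and genes with few reads, such as Mrps5, Mrps6 and Mrps28, are limited by depth.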

Other observations

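Further members with a large KO effect, picked here after their values were seen, fell in lung without a called change in spleen. Mrps22, a small-subunit protein found only in mitochondrial ribosomes, was at 48.6 and 41.7 CPM in WT lung and 24.4 and 26.7 in KO lung (-0.84 ± 0.11 (SE), edgeR adjusted p = 2.29e-08), with 0.09 ± 0.09 (SE) in spleen. Mrps35, also of the small subunit, was at 42.5 and 44.8 in WT and 22.1 and 25.8 in KO (-0.83 ± 0.12 (SE), edgeR adjusted p = 1.41e-07), with 0.21 ± 0.11 (SE) in spleen.

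Mrpl16, a large-subunit protein of bacterial descent, rose in spleen from 41.2 and 38.0 to 62.7 and 64.2 CPM (0.71 ± 0.08 (SE), edgeR adjusted p = 1.48e-09), with -0.21 ± 0.09 (SE) in lung. Mrpl9 rose in spleen (0.50 ± 0.08 (SE), edgeR adjusted p = 1.90e-06) and was at 0.02 ± 0.09 (SE) in lung.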
